A study of Mus musculus with 24 samples.

Results

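Nr4a1, Nr4a2, Nr4a3 and Npas4, transcription factor genes that neurons switch on soon after stimulation, were followed across the 8 groups of the series. They were chosen by name, and their values come from the probe sets annotated to 1 of these genes alone: 1 probe set for Nr4a1, 6 for Nr4a2, 3 for Nr4a3 and 1 for Npas4. These are 11 of the 45101 probe sets on the array and 4 of the 18194 genes that could be named. RNA came from primary mouse cortical neurons taken at E18 and treated after 1 week in culture. One group received DMSO, the solvent control, another 1 µM IBET858, and another 50 ng/ml BDNF. The last received both agents at these doses, called the combined treatment here. Each treatment was applied for 2 h and for 12 h, and each of the 8 groups held 3 arrays. The labels give no genotype or strain, and do not say whether the 3 replicates came from different cultures. The p-values therefore measure only how these arrays vary, and that variation may be technical.

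NR4A1, NR4A2 and NR4A3 are orphan nuclear receptors, which act without a known classical hormone and whose activity follows mainly from how much of them is made. They bind a DNA element called NBRE as monomers, and NR4A1 and NR4A2 can also pair with retinoid X receptors. NPAS4 belongs to the bHLH-PAS family, pairs with ARNT or ARNT2, and is induced in neurons chiefly by calcium influx. BDNF signals through the receptor TrkB to kinases that activate factors such as CREB and SRF at immediate-early genes. IBET858 inhibits BET proteins, readers of acetylated histones that assist transcription.

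The promoters of the members are shown because CREB binds the CRE half-site TGACG, and the NR4A genes are known CREB targets. The letters below are the 250 bases before each RefSeq start site in assembly GRCm38.p6, 5′ to 3′ on the gene's strand, with each half-site in capitals (TGACG or, for the other strand, CGTCA). The Nr4a1 window is chr15:101266596-101266845 on the plus strand, the Nr4a2 window chr2:57124004-57124253 on the minus strand and the Npas4 window chr19:4989972-4990221 on the minus strand. Of the Nr4a3 window only 30 bases are shown, chr4:48045067-48045096 on the plus strand. The annotated gene begins at base 48045078, 227 bases before this start site. Most of the window, and part of the stretch shown, may therefore be UTR. The other 2 Nr4a3 half-sites begin 205 and 147 bases before that start site.
Nr4a1: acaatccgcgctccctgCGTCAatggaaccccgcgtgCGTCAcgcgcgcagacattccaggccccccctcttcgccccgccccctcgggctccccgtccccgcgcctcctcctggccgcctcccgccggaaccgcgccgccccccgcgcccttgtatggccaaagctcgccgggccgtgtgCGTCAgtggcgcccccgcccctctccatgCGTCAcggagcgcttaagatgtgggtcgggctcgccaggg
Nr4a2: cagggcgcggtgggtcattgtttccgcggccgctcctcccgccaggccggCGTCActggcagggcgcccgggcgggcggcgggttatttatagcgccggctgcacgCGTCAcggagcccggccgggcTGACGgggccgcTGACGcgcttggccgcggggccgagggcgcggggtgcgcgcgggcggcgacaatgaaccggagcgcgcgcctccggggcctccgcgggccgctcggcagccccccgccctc
Nr4a3: aggagggTGACGtagcgtcccatgtCGTCA
Npas4: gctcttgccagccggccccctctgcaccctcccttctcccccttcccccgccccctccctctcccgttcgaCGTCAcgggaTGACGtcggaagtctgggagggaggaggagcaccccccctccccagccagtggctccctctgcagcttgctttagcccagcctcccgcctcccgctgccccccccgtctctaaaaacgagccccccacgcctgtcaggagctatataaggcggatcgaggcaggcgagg

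The half-site occurred 4 times in the windows of Nr4a1, Nr4a2 and Nr4a3 each, counted over the whole 250 bases, and 2 times in that of Npas4. Of the 32851 promoter windows in the RefSeq table, 17.8% held at least 1 half-site and 0.137% held 4 or more. The windows of Nr4a1, Nr4a2 and Npas4 were 74.4%, 80.0% and 68.8% G or C, against a median of 52.4% over all windows. Both strands were also searched for the full CRE TGACGTCA, which contains the half-site on both strands and occurs in 1.55% of all windows, for the NBRE AAAGGTCA (1.34%) and for the NPAS4 core TCGTG (13.3%). None of these 3 motifs was found in the window of any member. The TATA motif TATAAA (12.4% of all windows) occurred 1 time, in the Nr4a2 window. That match lies on the opposite strand, 164 to 159 bases before the start site. Only exact matches were counted, so near variants such as the letters tatataa in the Npas4 window were not. A match describes these letters only, and no binding was measured. The Nr4a1 and Npas4 start sites lie 12944 and 13468 bases inside the annotated genes, so that longer transcripts span these windows.

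The deposited values are log2 values from RMA, and each probe set had been centred on its median over the 24 arrays. They therefore show how a gene differs between arrays, not how strongly it is expressed, and levels of different genes cannot be compared. All levels below are on this centred log2 scale, where 1 unit is a doubling, and the value of a gene is the mean of its probe sets. In bulk samples, fewer cells of a type and less RNA per cell cannot be told apart. Cell type markers could be followed only as shifts: the mean of 6 neuronal markers (such as Tubb3 and Map2) ranged from -0.28 in DMSO at 12 h to 0.30 in the combined treatment at 2 h, that of 6 vascular markers was 0.73 in the combined treatment at 2 h and between -0.08 and 0.04 in the other 7 groups, and that of 6 astrocyte markers ranged from -0.34 to 0.23. In the combined treatment at 2 h these means rested largely on single genes: against BDNF, Pecam1 differed by 3.64 while the median vascular marker differed by 0.19, and Nefl differed by 1.55 while the median neuronal marker differed by 0.03. Their part in the members' differences was not tested. The array of DMSO at 2 h replicate 1 stood apart, with a standard deviation of 0.178 over all genes around its group mean, followed by IBET858 at 12 h replicate 3 with 0.157, against 0.0720 to 0.117 for the others. No pair of arrays held identical values.

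Nr4a1, also called Nur77, was high after 2 h of BDNF and lower at 12 h, and its mean in DMSO was also lower at 12 h. The 3 arrays read 1.35, 1.33 and 1.32 in BDNF at 2 h and 1.70, 1.59 and 1.73 in the combined treatment at 2 h. In DMSO at 2 h they read -1.33, -0.09 and -0.08, and in IBET858 at 2 h 0.09, 0.09 and 0.08. Replicate 1 of DMSO at 2 h thus lay more than 1 unit below its 2 partners, and all BDNF-treated arrays at 2 h lay above all others of the series. At 12 h the arrays read -1.50, -0.96 and -1.10 in DMSO, -1.27, -1.18 and -0.95 in IBET858, 0.23, 0.10 and 0.16 in BDNF, and -0.53, -0.56 and -0.70 in the combined treatment. From highest to lowest mean the groups ran from the combined treatment at 2 h (1.67 ± 0.08, SD, n = 3) through BDNF at 2 h (1.33 ± 0.02), BDNF at 12 h (0.16 ± 0.07), IBET858 at 2 h (0.09 ± 0.005), DMSO at 2 h (-0.50 ± 0.72), the combined treatment at 12 h (-0.60 ± 0.09) and IBET858 at 12 h (-1.13 ± 0.17) to DMSO at 12 h (-1.19 ± 0.28). Among neighbours in this order, the arrays overlapped between DMSO at 2 h and the combined treatment at 12 h, and between the 2 lowest groups.

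Nr4a2, or Nurr1, which dopamine neurons need to develop, was high in BDNF at both times. The arrays read 1.22, 1.25 and 1.23 in BDNF at 2 h and 1.18, 1.19 and 1.08 in BDNF at 12 h. In the combined treatment they read 0.89, 0.93 and 0.79 at 2 h but 0.13, 0.09 and 0.04 at 12 h. The fall with IBET858 was thus visible on every array at both times. Without BDNF the arrays read -0.07, -0.12 and -0.21 in DMSO and -0.23, -0.19 and -0.28 in IBET858 at 2 h, and -1.12, -0.998 and -1.03 in DMSO and -0.89, -0.79 and -0.76 in IBET858 at 12 h. The order by mean was BDNF at 2 h (1.23 ± 0.02), BDNF at 12 h (1.15 ± 0.06), the combined treatment at 2 h (0.87 ± 0.07) and at 12 h (0.09 ± 0.04), DMSO at 2 h (-0.13 ± 0.07), IBET858 at 2 h (-0.23 ± 0.04), IBET858 at 12 h (-0.82 ± 0.07) and DMSO at 12 h (-1.05 ± 0.06). Only DMSO and IBET858 at 2 h overlapped among neighbours.

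Nr4a3, or Nor1, spanned the least of the members and was lowest in the combined treatment at 12 h. The arrays read 0.77, 0.73 and 0.72 in BDNF at 2 h, 0.71, 0.53 and 0.37 in the combined treatment at 2 h, and 0.38, 0.26 and 0.28 in BDNF at 12 h. In the combined treatment at 12 h they read -0.68, -0.86 and -0.91, below every other array of the series. DMSO at 2 h was split, with -0.52 in replicate 1 against 0.25 and 0.34, while IBET858 at 2 h read -0.01, -0.10 and 0.08. At 12 h the arrays read -0.52, -0.36 and -0.15 in DMSO and -0.38, -0.31 and -0.31 in IBET858. The order by mean was BDNF at 2 h (0.74 ± 0.02), the combined treatment at 2 h (0.54 ± 0.17), BDNF at 12 h (0.31 ± 0.06), DMSO at 2 h (0.02 ± 0.47), IBET858 at 2 h (-0.01 ± 0.09), IBET858 at 12 h (-0.33 ± 0.04), DMSO at 12 h (-0.34 ± 0.18) and the combined treatment at 12 h (-0.82 ± 0.12). The arrays did not overlap between the first and second of these groups, between IBET858 at 2 h and at 12 h, or between the last 2, and overlapped between all other neighbours.

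Npas4 was lowest in DMSO and was high wherever IBET858 had been given. The arrays read -1.89, -0.79 and -0.78 in DMSO at 2 h, 0.12, 0.03 and 0.06 in IBET858 at 2 h, 0.27, 0.42 and 0.15 in BDNF at 2 h, and 1.21, 1.08 and 1.09 in the combined treatment at 2 h. At 12 h they read -2.15, -1.46 and -1.57 in DMSO and -0.77, -1.01 and -1.02 in BDNF. With IBET858 at 12 h the arrays read -0.09, -0.02 and 0.24 without BDNF and -0.09, 0.02 and 0.13 with it, so the 2 groups covered nearly the same range. The order by mean was the combined treatment at 2 h (1.13 ± 0.07), BDNF at 2 h (0.28 ± 0.13), IBET858 at 2 h (0.07 ± 0.04), IBET858 at 12 h (0.04 ± 0.18), the combined treatment at 12 h (0.02 ± 0.11), BDNF at 12 h (-0.93 ± 0.14), DMSO at 2 h (-1.15 ± 0.64) and DMSO at 12 h (-1.73 ± 0.37). The 3 groups from IBET858 at 2 h to the combined treatment at 12 h overlapped one with the next, as did the last 3.

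**Figure D1:**
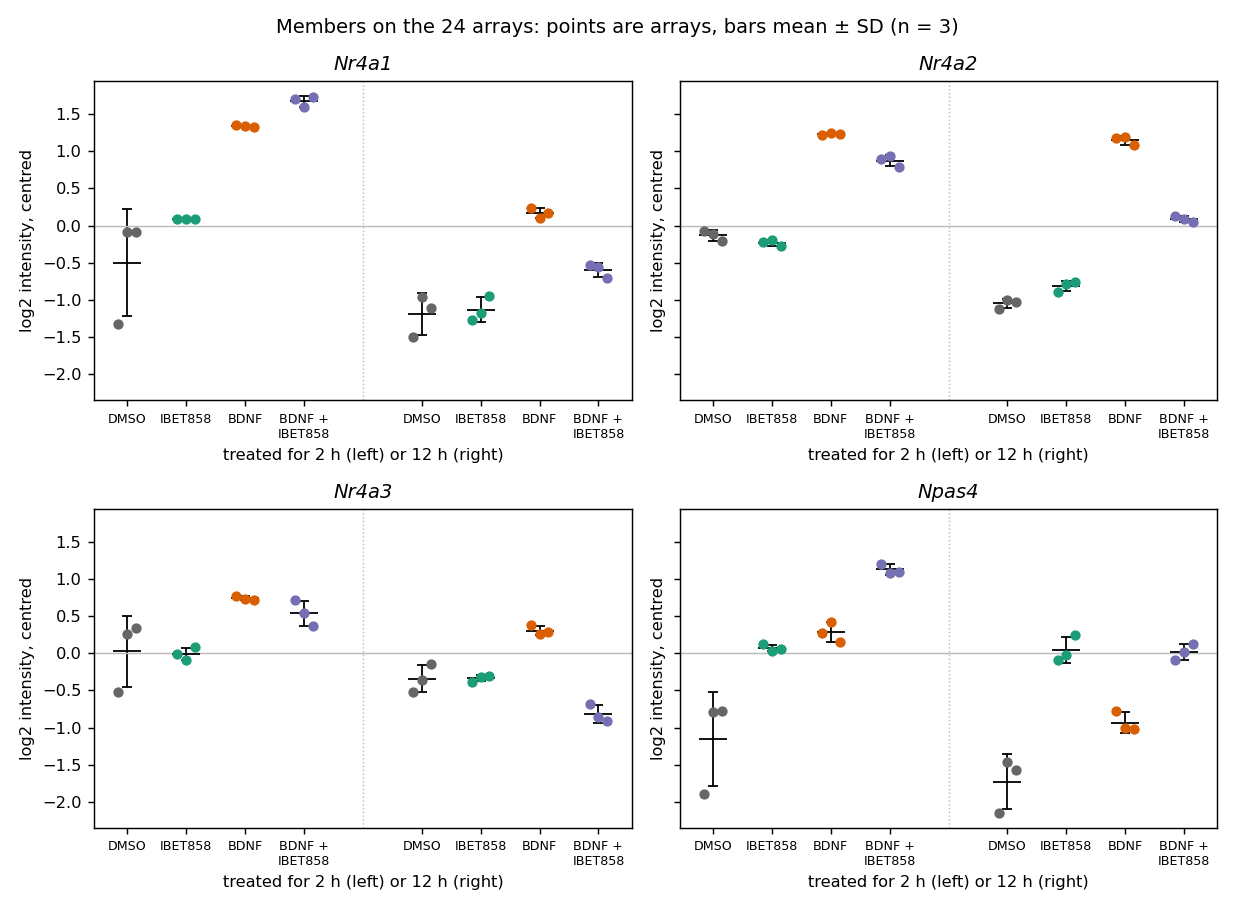
Centred log2 intensity of Nr4a1, Nr4a2, Nr4a3 and Npas4 on the 24 arrays, by treatment and time; points are arrays and bars show mean ± SD of 3 arrays. Npas4 sits near 0 in IBET858 at both times while its DMSO arrays lie between -2.15 and -0.78, and Nr4a2 in BDNF stays above 1 at both times.

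BDNF raised all 4 genes at both times. At 2 h, the difference from DMSO was 1.83 ± 0.21 (SE) log2 units for Nr4a1, a 3.57-fold rise (adjusted p = 5.48e-07, limma with Benjamini-Hochberg adjustment over all genes, as throughout). Nr4a2 rose by 1.37 ± 0.06 (adjusted p = 6.4e-14), Npas4 by 1.43 ± 0.21 (adjusted p = 1.29e-05) and Nr4a3 by 0.72 ± 0.15 (adjusted p = 0.000745). These are 4 of 4 members higher, where 9.79% of all genes were called higher at an adjusted p under 0.05. At 12 h the largest rise was that of Nr4a2, 2.19 ± 0.06 or 4.58-fold (adjusted p = 2.71e-17), which ranked 54 of 18194 genes. Nr4a1 rose by 1.35 ± 0.21 (adjusted p = 1.54e-05), Npas4 by 0.79 ± 0.21 (adjusted p = 0.00337) and Nr4a3 by 0.65 ± 0.15 (adjusted p = 0.0011), again 4 of 4, where 16.9% of all genes were called higher. No BDNF array overlapped a DMSO array for any member at either time, which also held for 41.1% of all genes at 2 h and 52.1% at 12 h. Without DMSO at 2 h replicate 1, the rises at 2 h were 1.42 for Nr4a1, 1.40 for Nr4a2, 1.07 for Npas4 and 0.44 for Nr4a3. All 4 stayed called, Nr4a3 with an adjusted p of 0.00163.

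With BDNF the rise of Nr4a2 was larger at 12 h than at 2 h, by 0.83 ± 0.08 log2 units (adjusted p = 1.04e-07). It was the 1 member of 4 whose BDNF effect differed between the times by this test, where 12.9% of all genes were called with a higher effect at 12 h. In BDNF cultures Nr4a2 itself differed by -0.09 ± 0.06 between 12 h and 2 h (95% interval -0.20 to 0.03, adjusted p = 0.239), while in DMSO it fell by 0.91 ± 0.06 (adjusted p = 9.08e-10). For Npas4 the BDNF effect differed by -0.64 ± 0.29 (adjusted p = 0.124). Without both DMSO arrays that were high in astrocyte markers (described further on), that value was -0.49 with an adjusted p of 0.0132. Without DMSO at 2 h replicate 1 alone it was -0.27 (adjusted p = 0.346). The value of -0.49 is smaller in size than -0.64, so its lower adjusted p reflects a narrower spread and is no further evidence of a difference. The differences for Nr4a1 and Nr4a3 were -0.48 ± 0.29 (adjusted p = 0.275) and -0.07 ± 0.21 (adjusted p = 0.878).

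IBET858 alone raised Npas4 at both times and Nr4a2 at 12 h, and neither of the other 2 receptor genes was called at either time. Npas4 was higher by 1.22 ± 0.21 at 2 h, 2.34-fold (adjusted p = 0.00017), and by 1.77 ± 0.21 at 12 h, 3.41-fold (adjusted p = 2.76e-07). It ranked 48 and 45 from the top of 18194 genes. At 2 h it was the 1 member of 4 called, where 5.64% of all genes were called higher. Without DMSO at 2 h replicate 1 its difference was 0.86 (adjusted p = 0.000212). Nr4a1 was 0.59 ± 0.21 higher at 2 h (adjusted p = 0.0627), with arrays that did not overlap, as for 30.8% of all genes. Without DMSO at 2 h replicate 1 that difference was 0.17 (adjusted p = 0.371). Nr4a2 differed by -0.10 ± 0.06 (adjusted p = 0.258) and Nr4a3 by -0.03 ± 0.15 (adjusted p = 0.915), and without the same array Nr4a3 was lower by a called 0.31 (value -0.31, adjusted p = 0.0402).

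At 12 h IBET858 alone gave 2 of 4 members called, Npas4 and Nr4a2, where 22.9% of all genes were called higher. Nr4a2 was 0.23 ± 0.06 higher, 1.17-fold (adjusted p = 0.00136). The median over its 6 probe sets fitted singly was 0.20, and 2 of the 6 were called higher. Nr4a1 differed by 0.06 ± 0.21 (95% interval -0.38 to 0.49, adjusted p = 0.847) and Nr4a3 by 0.01 ± 0.15 (95% interval -0.30 to 0.32, adjusted p = 0.966). The IBET858 effect differed between the times for Nr4a2, by 0.33 ± 0.08 (adjusted p = 0.00199), 1 of 4 members where 15.8% of all genes were called with a higher effect at 12 h. For Npas4 the effect at 12 h exceeded that at 2 h by 0.54 ± 0.29 (adjusted p = 0.173), and by 0.91 (adjusted p = 0.00083) without DMSO at 2 h replicate 1. The Affymetrix poly-A control probe sets, which follow RNA added in fixed amounts, were themselves higher with IBET858 at 12 h. Their mean difference over 27 probe sets was 0.86 without BDNF and 0.50 with it. For 9 hybridisation control probe sets it was 0.24 without BDNF and 0.23 with it, beside the Nr4a2 change of 0.23 without BDNF. The relation of these controls to the members' changes was not tested.

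Adding IBET858 to BDNF split the members. At 2 h Npas4 rose further, by 0.85 ± 0.21 or 1.80-fold (adjusted p = 0.00328), and Nr4a2 fell by 0.36 ± 0.06 (adjusted p = 2.16e-05), 2 of 4 members where 27.1% of all genes were called. Nr4a1 was 0.34 ± 0.21 higher (adjusted p = 0.251) and Nr4a3 differed by -0.20 ± 0.15 (adjusted p = 0.348), although in neither case did the arrays of the 2 groups overlap (46.9% of all genes did not). With the 2 DMSO arrays high in astrocyte markers left out of the model, the same difference of 0.34 for Nr4a1 had an adjusted p of 0.00088. Neither array belongs to this comparison. Nr4a1 deviated by -0.83 and -0.31 from its group means on them, so leaving them out narrowed only the shared estimate of spread. The lower adjusted p is therefore no further evidence of a change in Nr4a1.

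By 12 h all 3 receptors had fallen with IBET858 in BDNF cultures and Npas4 had risen, 4 of 4 members where 46.8% of all genes were called. Nr4a3 fell by 1.12 ± 0.15, a 2.18-fold change (adjusted p = 1.31e-06). Nr4a2 fell by 1.06 ± 0.06, 2.09-fold (adjusted p = 1.07e-12), and Nr4a1 by 0.76 ± 0.21, 1.70-fold (adjusted p = 0.0041). Npas4 rose by 0.95 ± 0.21, 1.94-fold (adjusted p = 0.000504). The median change over all genes was -0.01. Between 2 h and 12 h this effect of IBET858 moved down by 1.10 ± 0.29 for Nr4a1 (value -1.10, adjusted p = 0.00453), by 0.92 ± 0.21 for Nr4a3 (value -0.92, adjusted p = 0.0011) and by 0.70 ± 0.08 for Nr4a2 (value -0.70, adjusted p = 2.77e-07), 3 of 4 members where 20.9% of all genes were called with a lower effect at 12 h. With quantile normalization repeated on the arrays, the first 2 of these values were -0.55 (adjusted p = 0.125) and -0.52 (adjusted p = 0.160), no longer called. For Npas4 the effect differed by 0.11 ± 0.29 between the times (95% interval -0.50 to 0.71, adjusted p = 0.805).

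Read the other way, BDNF still raised all 4 members in the presence of IBET858 at 2 h. The rises over IBET858 alone were 1.58 ± 0.21 for Nr4a1 (adjusted p = 6.25e-06), 1.10 ± 0.06 for Nr4a2 (adjusted p = 2.61e-12), 1.06 ± 0.21 for Npas4 (adjusted p = 0.000583) and 0.55 ± 0.15 for Nr4a3 (adjusted p = 0.00948), 4 of 4 where 6.44% of all genes were called higher. At 12 h they came apart, with 3 of 4 called where 39.3% of all genes were. Nr4a2 was 0.90 ± 0.06 higher (adjusted p = 3.57e-11) and Nr4a1 0.54 ± 0.21 higher (adjusted p = 0.0455), but Nr4a3 was lower, at -0.49 ± 0.15 (adjusted p = 0.012). Npas4 differed by -0.02 ± 0.21 (95% interval -0.45 to 0.41, adjusted p = 0.947). The call for Nr4a1 was lost in each of 5 of the 6 fits that left out 1 of these arrays (adjusted p up to 0.128), and that for Nr4a3 without the combined treatment at 12 h replicate 3 (-0.44, adjusted p = 0.0501). With the quantile step repeated neither was called, at 0.44 for Nr4a1 (adjusted p = 0.0973) and -0.23 for Nr4a3 (adjusted p = 0.516).

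The interaction term asks whether the combined treatment differs from the sum of both single effects on the log2 scale. At 12 h it was below 0 for all 4 members and called for 2, Nr4a2 at -1.29 ± 0.08 (adjusted p = 3.06e-10) and Nr4a3 at -1.13 ± 0.21 (adjusted p = 0.000675), where 7.24% of all genes were called below 0. Nr4a1 stood at -0.82 ± 0.29 (adjusted p = 0.0639) and Npas4 at -0.81 ± 0.29 (adjusted p = 0.062). Without both DMSO arrays high in astrocyte markers these values were -0.66 (adjusted p = 0.00017) and -0.60 (adjusted p = 0.003), which made 4 members called. Both values were smaller in size, and this omission, chosen after seeing the data, also narrowed the shared estimate of spread. The lower adjusted p-values are therefore no further evidence of an interaction for Nr4a1 or Npas4. At 2 h 1 of 4 members was called, Nr4a2 at -0.26 ± 0.08 (adjusted p = 0.0386), where 5.29% of all genes were called below 0. That call was lost in 9 of the fits that left out 1 array, with adjusted p up to 0.119. Npas4 at 2 h stood at -0.38 ± 0.29 (adjusted p = 0.533), and at -0.0099 (adjusted p = 0.993) without DMSO at 2 h replicate 1. With the quantile step repeated it stood at a called -0.84 (adjusted p = 0.000658), while Nr4a2 lost its call (-0.16, adjusted p = 0.310). The other 2 members were not called at 2 h, with Nr4a1 at -0.25 ± 0.29 (adjusted p = 0.712) and Nr4a3 at -0.17 ± 0.21 (adjusted p = 0.736).

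**Figure D2:**
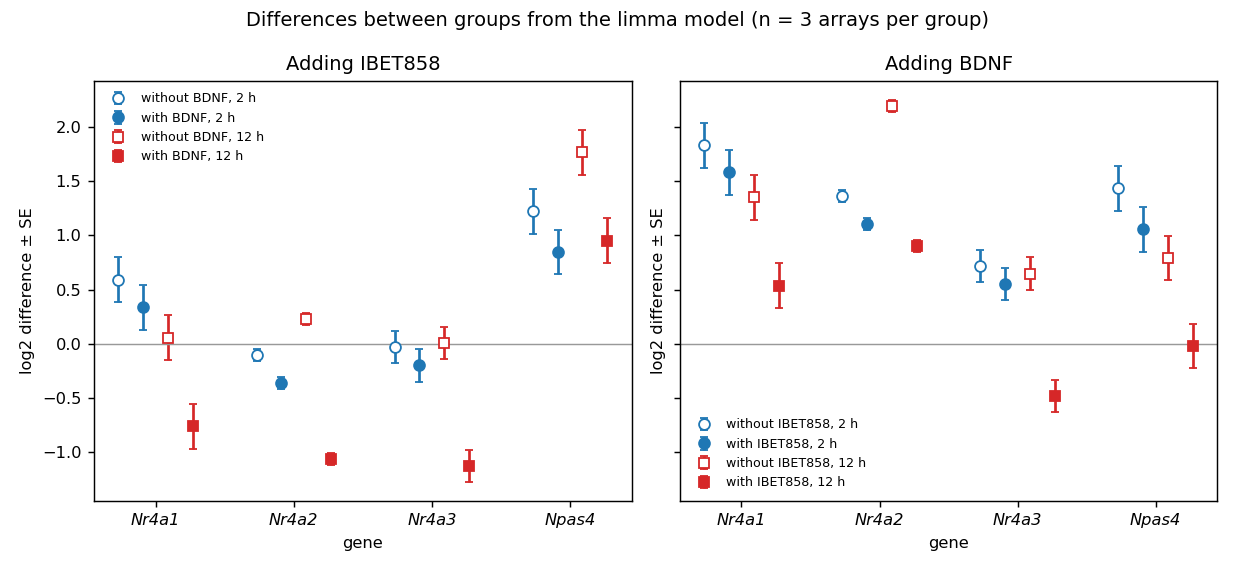
Log2 difference ± SE made by adding IBET858 (left) or BDNF (right), in the absence (open) or presence (filled) of the other agent, at 2 h (circles) and 12 h (squares). IBET858 in BDNF cultures at 12 h lowered Nr4a1, Nr4a2 and Nr4a3 by 0.76 to 1.12, while Npas4 lies above 0 in all 4 IBET858 comparisons.

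Between 2 h and 12 h all 4 members fell in the combined treatment, 3 in BDNF, and 2 each in DMSO and IBET858. In DMSO, 2 of 4 were called lower, where 3.63% of all genes were: Nr4a2 at -0.91 and Nr4a1 at -0.69 ± 0.21 (adjusted p = 0.0462). Nr4a3 differed by -0.37 ± 0.15 (adjusted p = 0.143) and Npas4 by -0.57 ± 0.21 (adjusted p = 0.0939). Same-numbered DMSO arrays of the 2 times deviated together, and with the replicate block within DMSO all 4 members were called at the same differences, Nr4a3 with an adjusted p of 0.0190 and Npas4 with 0.00128. That pairing was read from these same data and not from the labels, so the lower adjusted p-values are no further evidence of a fall. Without DMSO at 2 h replicate 1 all 4 were called as well, at -1.10 for Nr4a1, -0.88 for Nr4a2, -0.64 for Nr4a3 and -0.94 for Npas4, whereas the call for Nr4a1 was lost without any other single DMSO array. In IBET858, Nr4a1 fell by 1.22 ± 0.21 (adjusted p = 3.75e-05) and Nr4a2 by 0.58 ± 0.06 (adjusted p = 1.33e-08), 2 of 4 where 24.3% of all genes were called lower, while Nr4a3 differed by -0.32 ± 0.15 (adjusted p = 0.0796) and Npas4 by -0.03 ± 0.21 (adjusted p = 0.931). The Nr4a2 value in IBET858 was -0.14 (adjusted p = 0.0986) with the quantile step repeated. In BDNF, 3 of 4 fell where 19.3% of all genes were called lower: Npas4 by 1.21 ± 0.21 (adjusted p = 5.45e-05), Nr4a1 by 1.17 ± 0.21 (adjusted p = 9.15e-05) and Nr4a3 by 0.43 ± 0.15 (adjusted p = 0.0234). The Nr4a3 call was lost in 4 of the 6 fits that left out 1 of these arrays. In the combined treatment all 4 fell where 34.5% of all genes were called lower, Nr4a1 most, by 2.27 ± 0.21 or 4.82-fold (adjusted p = 4.02e-09). There Nr4a3 fell by 1.36 ± 0.15, Npas4 by 1.11 ± 0.21 and Nr4a2 by 0.78 ± 0.06.

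On DMSO at 2 h replicate 1, 3 of the 4 members lay far below their group mean: Nr4a1 by -0.83, Npas4 by -0.73 and Nr4a3 by -0.54, while Nr4a2 lay at 0.06. The mean of the 6 astrocyte markers Gfap, Aqp4, Aldh1l1, Slc1a3, S100b and Gja1 was 0.63 on that array against 0.09 and -0.01 on its partners. DMSO at 12 h replicate 1 showed the same arrangement, with an astrocyte mean of 0.53 against 0.001 and -0.04, and with Npas4 at -0.42, Nr4a1 at -0.31, Nr4a3 at -0.17 and Nr4a2 at -0.07 from the group mean. On each remaining array the astrocyte mean lay within -0.24 to 0.07 of its group's. Neuronal markers on the first of these arrays averaged -0.25, against -0.23 and -0.22. The part of the astrocyte signal in the members' values was not tested. Without both arrays the rise of Npas4 with IBET858 was 0.86 at 2 h (adjusted p = 3.25e-06) and 1.56 at 12 h (adjusted p = 1.86e-10), and the rises with BDNF were called for all 4 members at both times.

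**Figure D3:**
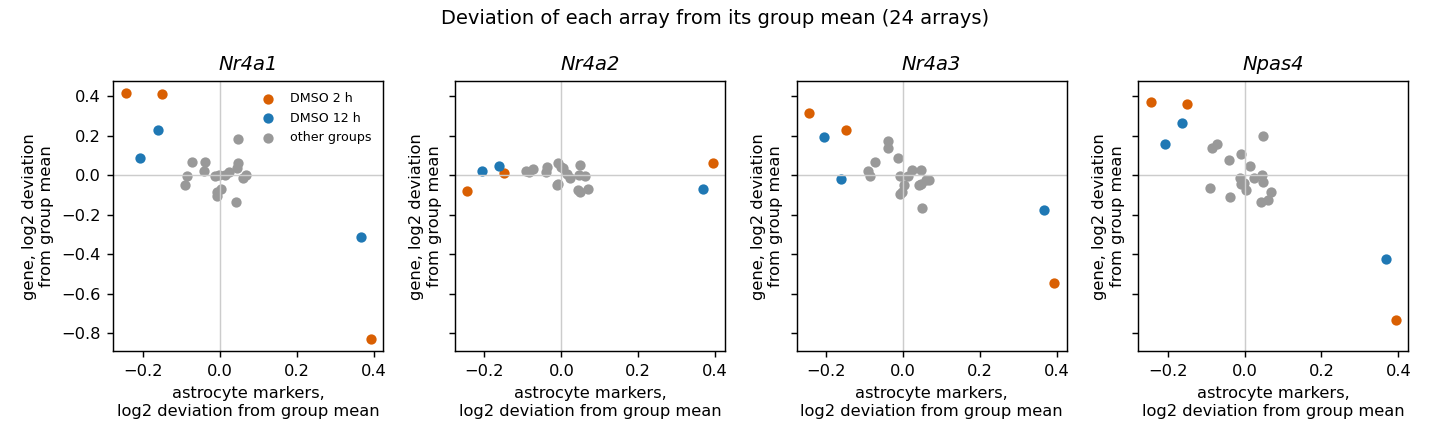
Deviation of each array from its group mean (log2 units) for each member, plotted against the deviation of the mean of 6 astrocyte markers, for 24 arrays. The DMSO arrays at 2 h and at 12 h that lie farthest right, at 0.39 and 0.37, are the lowest for Nr4a1 and Npas4, while Nr4a2 stays within 0.09 of 0 on every array.

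The probe sets of Nr4a2 did not respond alike. Probe sets 1447863_s_at, 1450749_a_at, 1450750_a_at and 1455034_at spanned 2.48 to 4.06 log2 units over the 24 arrays and followed one another closely. Probe sets 1433422_at and 1433423_at, both tied by the annotation to 1 cDNA clone, spanned 0.47 and 0.81. The second of these followed the steep probe sets at lower amplitude, with correlations of 0.76 to 0.77, a called rise of 0.52 with BDNF at 12 h and a called fall of 0.37 (value -0.37) when IBET858 was added. The BDNF rise at 12 h therefore ranged from 0.14 to 3.72 over the 6 probe sets, 5 of which were called higher, and the gene value of 2.19 averages probe sets of small and large range. With IBET858 added to BDNF at 12 h the probe sets changed by -1.64 to -0.02, 5 of 6 called lower. The small rise with IBET858 alone at 12 h ran from 0.08 to 0.61, with 2 of 6 called, and the single Nr4a2 interaction call at 2 h held on 1 of 6 probe sets.

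Among the 3 probe sets of Nr4a3, 1421079_at spanned 2.55 units, 1438796_at 1.85 and 1421080_at 0.92. Their correlations over the 24 arrays lay between 0.80 and 0.86. All 3 rose with BDNF at 2 h, by 0.35 to 1.40, and all 3 fell when IBET858 was added to BDNF at 12 h, by -1.69 to -0.29. The fall of Nr4a3 in the combined treatment below IBET858 alone at 12 h ran from -0.77 to -0.23 and was called on 1 of 3. Nr4a1 and Npas4 each rest on a single probe set, 1416505_at and 1459372_at, so no second probe set checks their values.

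**Figure D4:**
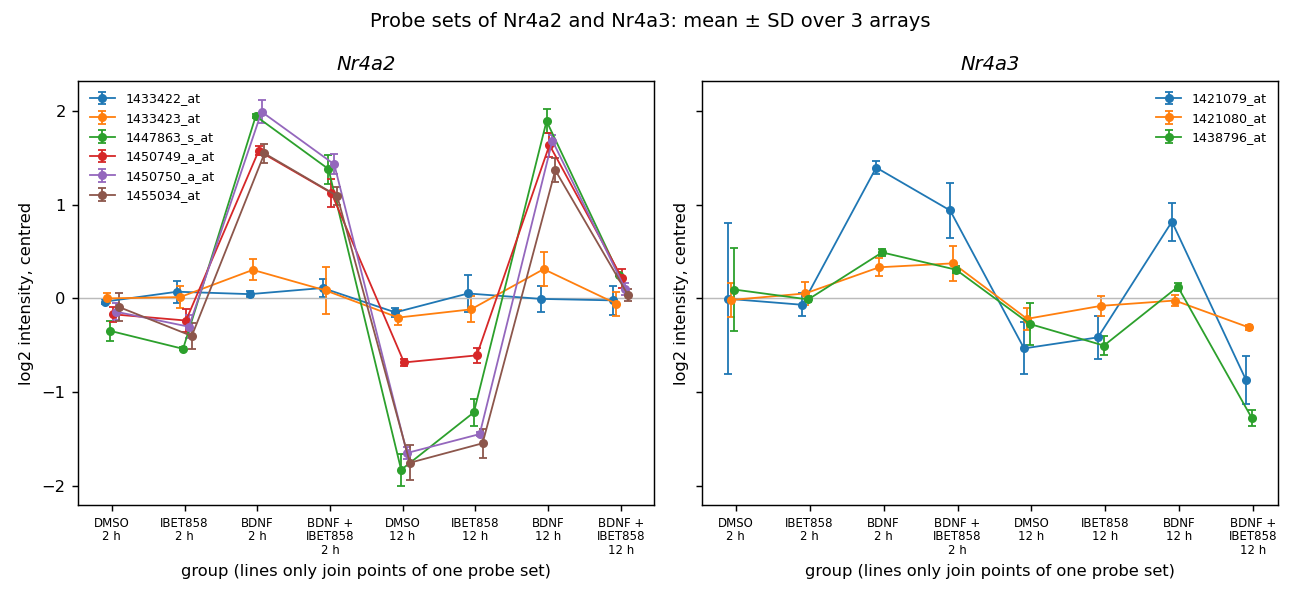
Group mean ± SD over 3 arrays (centred log2 intensity) of each probe set of Nr4a2 and Nr4a3 across the 8 groups; lines join points of 1 probe set. Of the Nr4a2 probe sets, 4 rise and fall together over 2.48 to 4.06 units across the arrays, and 1433422_at and 1433423_at span less, 0.47 and 0.81 units.

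Across the 24 arrays, which share treatments and times, Nr4a1 correlated with Nr4a3 at r = 0.84, with Nr4a2 at 0.82 and with Npas4 at 0.69. Nr4a2 and Nr4a3 correlated at 0.69, and Npas4 followed Nr4a2 at 0.43 and Nr4a3 at 0.37. Around the group means, the deviations of Nr4a1 and Npas4 correlated at 0.93, those of Nr4a1 and Nr4a3 at 0.86 and those of Nr4a3 and Npas4 at 0.81, while Nr4a2 stood at -0.11 to -0.01 with the others. These values lean on 1 array: without DMSO at 2 h replicate 1 they were 0.80, 0.45 and 0.43, and Nr4a2 correlated at 0.40 to 0.47 with the others. Nr4a2 thus shared the group pattern of the receptors but not the deviation of that array.

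The genes most like each member were ranked by Pearson correlation over the 24 arrays, among 4002 genes whose group means spanned at least 1 log2 unit, as a description only. Nearest to Nr4a1 were Zdbf2 and the zinc finger factor Egr4 (both r = 0.951), then Btg2 (0.940), an antiproliferative immediate-early gene, Egr3 (0.939) and Sdr39u1 (0.930). Nearest to Nr4a2 were Grasp (0.944), the protease Adamts1 (0.925), the cyclooxygenase Ptgs2 (0.924), Egr2 (0.915) and the AP-1 member Fosl2 (0.913). Nr4a3 was closest to the clock gene Per1 (0.928), then Mir670hg (0.896), Sdr39u1 (0.890), the netrin G2 gene Ntng2 (0.872) and Zhx2 (0.866). Npas4 was closest to Ier5 (0.935), Sertad1 (0.933), the glucose transporter Slc2a1 (0.930), the EGF receptor inhibitor Errfi1 (0.928) and Sox9 (0.922). The only gene in more than 1 of these lists was Sdr39u1, for Nr4a1 and Nr4a3.

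Of 21 other activity-induced transcription factors, such as Fos, Egr1 and Junb, 21 rose with BDNF at 2 h (median 1.74 log2 units, against 1.40 for the 4 members and -0.004 for all genes) and 20 at 12 h (median 1.00 against 1.07). The shares of all genes called higher were 9.79% and 16.9%. With IBET858 alone, 13 of 21 rose and 2 fell at 2 h and 13 rose and 3 fell at 12 h, the medians being 0.43 and 0.52. Of all genes, 5.64% and 22.9% were called higher, and no share is given here for falls. When IBET858 was added to BDNF, 11 rose and 4 fell at 2 h, and 11 rose and 3 fell at 12 h, with a median of 0.29 at 12 h against -0.91 for the members. Of all genes, 27.1% and 46.8% were called either way. The largest changes at 12 h were rises of Jun (1.90 ± 0.07, adjusted p = 3.87e-15), an AP-1 subunit, and of the zinc finger factor Klf4 (1.64 ± 0.11, adjusted p = 5.05e-11), and a fall of Fosl2 (-1.40 ± 0.12, adjusted p = 1.93e-09). At 12 h the receptors therefore moved with Fosl2, and Npas4 with Jun and Klf4, in this comparison.

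Partners that pair with these factors were followed too. Of Rxra, Rxrb, Rxrg, Arnt and Arnt2, Rxrb changed most with BDNF. It stood at -0.35 ± 0.06 at 2 h (adjusted p = 4.73e-05) and -0.47 ± 0.06 at 12 h (adjusted p = 4.96e-07). Arnt2, a partner of NPAS4, fell with IBET858 at 12 h, by 0.63 ± 0.08 without BDNF (adjusted p = 1.84e-06) and by 0.71 ± 0.08 with it (adjusted p = 3.08e-07), opposite in direction to Npas4. In BDNF cultures at 12 h, IBET858 lowered 3 of the 5 partners and raised 1, where 46.8% of all genes were called either way.

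Of 12 measured regulators upstream of the members, 5 rose with BDNF at 2 h, where 9.79% of all genes were called higher. Another 1 fell, and no share of all genes is given for falls. Srf, which binds serum response elements, rose by 0.92 ± 0.07 (adjusted p = 1.26e-09), and Crem, a CREB family gene with inducible repressor forms, by 0.74 ± 0.10 (adjusted p = 8.68e-06). Creb1 rose with IBET858 in all 4 comparisons, by 0.42 ± 0.05 and 0.77 ± 0.05 without BDNF at 2 h and 12 h, and by 1.22 ± 0.05 and 0.76 ± 0.05 with it. When IBET858 was added to BDNF at 2 h, Crem fell by 0.86 ± 0.10 (adjusted p = 8.89e-07) and the CREB coactivator gene Crtc3 by 0.69 ± 0.07 (adjusted p = 4.75e-08). At 12 h, Mef2c, a calcium-responsive factor, fell by 0.96 ± 0.13 (adjusted p = 2.38e-06).

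Among 5 genes described elsewhere as NPAS4 targets, 4 rose with BDNF at 2 h and 5 at 12 h. The other 1 fell at 2 h, and no share of all genes is given for falls. The shares of all genes called higher were 9.79% and 16.9%. Nptx2, a pentraxin that clusters AMPA receptors, followed Npas4 in direction in each of 4 IBET858 comparisons, rising by 0.81 ± 0.09 and 1.52 ± 0.09 without BDNF at 2 h and 12 h and by 0.49 ± 0.09 and 1.63 ± 0.09 with it. Bdnf itself did not: it rose with BDNF at 2 h (1.18 ± 0.26, adjusted p = 0.00141) and fell when IBET858 was added, by 1.37 ± 0.26 at 2 h (adjusted p = 0.000332) and 0.71 ± 0.26 at 12 h (adjusted p = 0.0312). With IBET858 alone, 1 of the 5 was called higher at 2 h and 2 at 12 h, where 5.64% and 22.9% of all genes were.

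Of 6 measured genes described as NR4A targets, 2 rose with BDNF at each time, where 9.79% and 16.9% of all genes were called higher. Slc18a2, the vesicular monoamine transporter, rose by 1.02 ± 0.34 at 2 h (adjusted p = 0.0286) and 1.91 ± 0.34 at 12 h (adjusted p = 9.54e-05), and the neuropeptide gene Vip by 0.43 ± 0.10 and 0.77 ± 0.10. When IBET858 was added to BDNF at 12 h, Slc18a2 fell by 2.02 ± 0.34 (adjusted p = 3.48e-05) and Vip by 1.69 ± 0.10 (adjusted p = 1.14e-11), while Ret, a receptor tyrosine kinase gene, rose by 0.29 ± 0.07. IBET858 alone at 12 h also lowered Vip, by 1.44 ± 0.10 (adjusted p = 2.2e-10), and Slc18a2, by 0.87 ± 0.34 (adjusted p = 0.0395).

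Relatives of the members gave a mixed picture. Of 33 other nuclear receptor genes measured, 7 rose with BDNF at 2 h and 7 at 12 h, where 9.79% and 16.9% of all genes were called higher. Falls numbered 3 at 2 h and 7 at 12 h, and no share of all genes is given here for falls. Esr1, the oestrogen receptor alpha gene, rose by 2.42 ± 0.10 with BDNF at 12 h (adjusted p = 4.36e-14), beside 2.19 ± 0.06 for Nr4a2, and fell by 2.57 ± 0.10 when IBET858 was added (adjusted p = 1.05e-14). Its interaction term at 12 h was -1.82 ± 0.14 (adjusted p = 8.79e-09), of the same sign as those of Nr4a2 and Nr4a3. In BDNF cultures at 12 h, IBET858 lowered 15 and raised 5 of the 33 receptors, where 46.8% of all genes were called either way. Of 11 other bHLH-PAS genes, 1 rose and 1 fell with BDNF at 2 h and 5 rose at 12 h, beside the same shares called higher. Sim1 led the rises at 12 h (0.98 ± 0.14, adjusted p = 4.69e-06). IBET858 at 12 h raised 4 and lowered 3 of the bHLH-PAS genes. Of all genes 22.9% were called higher, and no share is given for falls. Npas2, a clock factor, stood at -1.43 ± 0.17 (adjusted p = 4.86e-07) against 1.77 for Npas4.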

How the data were processed

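The deposited log2 values came from RMA, per the submitters' processing notes, a method that usually comprises background correction, quantile normalization and a summary per probe set. The table does not state the log base, and RMA works in log2. All 45101 of 45101 probe sets had a median of 0 over the 24 arrays (tolerance 1e-06), so the deposited log2 table had been centred, and no filter on dim genes was possible. The RMA version and annotation are not given in the sources used here.

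Symbols came from GEO's annotation of the platform (34958 with 1 symbol, 932 with several, 9211 with none or not listed), 34754 of them matched to RefSeq GRCm38.p6 by Entrez ID. A gene was the mean of the probe sets naming it alone, which gave 18194 genes, tested together with limma 3.58.1 in R 4.3.3. The model held 8 group means, with 16 residual degrees of freedom and a prior of 4.45. Tests were two-sided in 17 contrasts, with Benjamini-Hochberg adjustment over all genes and calls at an adjusted p under 0.05. With 3 arrays against 3, an exact permutation test cannot go below 0.1, so none was used. The code was tested on simulated data.

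The members and gene lists were chosen with earlier results of these data known. Named were the 4 members, up to 3 called genes per list and contrast with the largest change, and the 5 genes most correlated with each member. Some listed genes are not reported here. Alternatives covered the replicate block, single probe sets, the arrays of the compared times, scaling, array weights, robust variances and leaving arrays out. With single probe sets, a member counted as called if most of its probe sets were called in the direction of their median change. Deviations of same-numbered arrays correlated in all 3 pairs of DMSO at 2 h and 12 h (r = 0.51, 0.24 and 0.32), a pairing read from the data, not the labels. Leaving out both DMSO arrays high in astrocyte markers and the replicate block within DMSO were chosen after seeing the data.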

Additional observations from a re-analysis of the deposited data

Results flagged for a closer look

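Effects that differed between groups by a test of the difference itself were these. The interaction of BDNF and IBET858 stood at -0.26 for Nr4a2 at 2 h, and at -1.29 for Nr4a2 and -1.13 for Nr4a3 at 12 h. Between 2 h and 12 h, the IBET858 effect on Nr4a2 differed by 0.33 and the BDNF effect on Nr4a2 by 0.83. In BDNF cultures the IBET858 effect differed between these times by -1.10 for Nr4a1, -0.70 for Nr4a2 and -0.92 for Nr4a3. Groups of 3 arrays are too small for a test of single outlying arrays.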

How the results depend on the processing

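The counts of members called for BDNF against DMSO (4 and 4) and for the combined treatment against BDNF at 12 h (4) were the same under every alternative run. So were those for the combined treatment at 12 h against 2 h (4). Elsewhere the number of members called changed as follows. For IBET858 against DMSO it was 3 at 2 h with the quantile step repeated and 2 with array weights, without the 2 arrays that stand apart and without both DMSO arrays high in astrocyte markers, and at 12 h 3 with the quantile step and 1 with probe sets fitted singly. For the combined treatment against BDNF at 2 h it was 3 with weights and each omission of 2 arrays. Neither omission took an array from that comparison, so only the shared estimate of spread changed. For the interaction it was 0 at 2 h with the compared arrays only and with single probe sets, and 4 at 12 h with the compared arrays only, the quantile step, weights, and each omission of 2 arrays. For the combined treatment against IBET858 at 12 h it was 1 with the quantile step and with single probe sets. For the IBET858 effect between times it was 2 with weights and each omission of 2 arrays and 0 with single probe sets, for the BDNF effect 2 with the quantile step and without both DMSO arrays, and for the IBET858 effect in BDNF cultures 1 with the quantile step. For 12 h against 2 h it was 4 in DMSO with weights, each omission of 2 arrays and the replicate block within DMSO, 3 with the quantile step and 1 with single probe sets. In IBET858 it was 1 with the quantile step and 3 with weights and each omission, and in BDNF 4 with the quantile step and 2 with single probe sets. That step, by construction, forces equal spread of centred values on all arrays; under it the IBET858 effect in BDNF cultures between times was an uncalled -0.55 for Nr4a1 and -0.52 for Nr4a3, and Nr4a1 (0.57) and Nr4a2 (0.71) were called higher with IBET858 alone at 12 h. The other causes were not tested.

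Leaving out 1 array at a time gave 1 to 2 members for IBET858 against DMSO at 2 h, 3 to 4 and 1 to 3 for the combined treatment against IBET858 at 2 h and 12 h, 0 to 1 and 2 to 3 for the interactions, 1 to 2 for the IBET858 effect and 1 to 2 for the BDNF effect between times, 1 to 4 for DMSO and 2 to 3 for BDNF at 12 h against 2 h.

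Differences that turned sign were uncalled in the main model and in each fit that turned them. The -0.31 given below for Nr4a3 with IBET858 at 2 h kept its sign and was called (limma, adjusted p = 0.0402). Npas4 in the combined treatment against IBET858 at 12 h was 0.019 with array medians subtracted, 0.021 with the quantile step, 0.038 with weights and 0.078 without the 2 arrays that stand apart (-0.090 to 0.078 leaving out 1 array), and at 12 h against 2 h in IBET858 -0.13 to 0.040 leaving out 1 array. Nr4a1 with IBET858 at 12 h was -0.058 with weights, -0.038 without the 2 arrays and -0.10 without both DMSO arrays (-0.10 to 0.17), and its interaction at 2 h was 0.14, 0.16 and 0.16 (-0.46 to 0.16). Nr4a3 with IBET858 at 12 h was -0.012 with array medians subtracted, -0.016 with weights, -0.0056 without the 2 arrays and -0.078 without both DMSO arrays (-0.078 to 0.105), at 2 h it was -0.31 to 0.12 leaving out 1 array, and its IBET858 effect between times -0.12 to 0.31. Its interaction at 2 h was 0.076, 0.11 and 0.11 (-0.32 to 0.11), and its BDNF effect between times 0.080 with the quantile step, 0.12 with weights, 0.21 without the 2 arrays and 0.12 without both DMSO arrays (-0.22 to 0.21).

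Over all groups the replicate numbers did not pair the arrays: of 84 pairs of same-numbered arrays, 10 deviated together at r above 0.1 (range -0.20 to 0.51). With the replicate block over all groups, 4 members were called for BDNF against DMSO at 2 h, and no count of members changed. Precision is limited by 3 arrays per group, 1 probe set each for Nr4a1 and Npas4, and by centring, which hides how far a gene lies above background.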
